A study of Caenorhabditis elegans with 2 samples.

Results

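In L2 larvae of the nematode Caenorhabditis elegans, 264 FOS-1 peaks of the list thresholded for reproducibility held an AP-1 site beside their summit. The other 7182 did not, and the AP-1 peaks are described here. An AP-1 site was taken as the 7-base palindrome TGACTCA, which reads TGAGTCA on the opposite strand, and it had to lie wholly within 50 bp of the summit on the ce11 genome. The choice used sequence and the position of the pooled summit only. The signal of the peaks, their calls in each replicate, their place in genes and the other motifs around them were not part of it. The share of peaks with a site was 3.55%, with a 95% Wilson interval of 3.15% to 3.99%. A single site was found in 257 of the peaks and 2 sites were found in 7.

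Binding was measured by chromatin immunoprecipitation and sequencing (ChIP-seq) in whole larvae of strain OP304, of genotype unc-119(ed3) III; wgIs304, in which the integrated transgene wgIs304 carries fos-1 fused to eGFP. Males and females were pooled, the age of the worms is given as unknown, and the only group consists of 2 biological replicates of the same strain. The antibody label names fos-1, whereas the description of the libraries names the eGFP fusion. Peaks are those that passed the irreproducible discovery rate (IDR), which keeps calls whose ranks agree between the lists compared. A small number of the peaks were not called in both replicates. The tagged protein is made from a transgene and the tissue is the whole animal, so a peak cannot be assigned to a cell type, and a peak list holds no expression value with which to check the label against marker genes.

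Fos proteins are basic leucine zipper (bZIP) factors that bind DNA as dimers, classically with a Jun protein, and the AP-1 site is the palindrome contacted by such a dimer, with a basic region of the dimer on each side of its centre. In C. elegans fos-1 is best known for its role in the anchor cell, which breaches the basement membrane between the gonad and the vulval tissue. JUN-1 is the Jun protein of the worm. Jun N-terminal kinases and their relatives are the classical upstream activators of AP-1 factors in animals.

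The site and its surroundings are shown for 9 of the 11 AP-1 peaks of highest signal, because the gene results begin with them (nhr-50 and tba-2 are not shown), together with the second peak of jun-1 and the peaks of 2 mitogen-activated protein (MAP) kinase genes. The last pair, at kin-4 and C34B4.2, shows the flanking bases that are most numerous in the genome and were seldom found under a summit. Sequences were read from the RefSeq WBcel235 assembly (ce11) on the strand that reads TGACTCA, from 5′ to 3′, and AP-1 sites are in capitals. Each window is centred on the site and 61 bases long, except that of the strongest jun-1 peak, which lies at the start of the gene and is limited to 29 bases. The windows are chrII:9113150-9113178 (plus strand) and chrII:9127087-9127147 (plus) for jun-1, chrIII:10742606-10742666 (plus) for rib-2, chrII:9094615-9094675 (plus) for C07H4.1, chrIII:4906567-4906627 (minus) for rom-1 and chrX:14975824-14975884 (plus) for F20D1.3. They are chrV:14696911-14696971 (plus) for unc-112, chrX:4478645-4478705 (plus) for ncr-1, chrV:6214066-6214126 (plus) for rme-1, chrIII:9956868-9956928 (plus) for alx-1 and chrIV:409107-409167 (minus) for kgb-1. They are chrIV:8139115-8139175 (plus) for pmk-3, chrIV:11434724-11434784 (plus) for kin-4 and chrV:13081371-13081431 (minus) for C34B4.2.
jun-1, strongest peak: gagtgtgcgtgTGACTCAttctcggggcc
jun-1, second peak: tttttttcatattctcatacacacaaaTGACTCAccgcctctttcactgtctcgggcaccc
rib-2: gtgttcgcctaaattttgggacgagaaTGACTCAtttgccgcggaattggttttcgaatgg
C07H4.1: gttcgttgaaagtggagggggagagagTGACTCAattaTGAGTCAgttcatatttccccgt
rom-1: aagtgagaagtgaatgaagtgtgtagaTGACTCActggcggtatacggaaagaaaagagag
F20D1.3: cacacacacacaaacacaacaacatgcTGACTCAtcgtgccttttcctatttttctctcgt
unc-112: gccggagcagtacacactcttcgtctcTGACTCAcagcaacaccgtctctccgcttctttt
ncr-1: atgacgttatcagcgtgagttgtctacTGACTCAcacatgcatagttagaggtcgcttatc
rme-1: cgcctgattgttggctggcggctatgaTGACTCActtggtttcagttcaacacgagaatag
alx-1: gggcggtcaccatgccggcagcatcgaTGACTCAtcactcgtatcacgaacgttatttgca
kgb-1: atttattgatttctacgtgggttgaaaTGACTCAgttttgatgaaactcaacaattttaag
pmk-3: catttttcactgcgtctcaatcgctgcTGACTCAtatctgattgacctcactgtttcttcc
kin-4: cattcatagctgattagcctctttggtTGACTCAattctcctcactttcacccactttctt
C34B4.2: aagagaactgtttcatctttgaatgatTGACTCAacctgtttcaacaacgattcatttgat

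Every peak carries a signal value, the peak caller's own measure of its strength, given in the pooled list and in the list of each replicate. These values are not normalized between lists, the read depth is unknown, and replicate 1 gave higher values than replicate 2 at most peaks, with a median ratio of 2.35 at AP-1 peaks and 2.19 at the other IDR peaks. Values are therefore compared between peaks within a list. Peaks are not replicates of a condition, so no p-value was computed over them, and the 2 replicates are set side by side in its place. Intervals are 95% and cover counting error only.

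Sites were densest within 50 bp of the summits, without a further rise towards the summit itself, and thinned out within 100 bp. Around all IDR summits, 138 AP-1 sites had their centre within 24 bp of the summit and 152 had it 25 to 49 bp away. The next bins of 25 bp held 122, 78 and 48 sites. The same 7 letters in reverse order, ACTCAGT or ACTGAGT, have the same base composition and no recognised role. They were found within 50 bp of 0.497% of the summits (0.361% to 0.684%), and 9 of these 37 peaks were AP-1 peaks. Whether the reversed letters shared bases with the AP-1 site there was not counted. In windows of the same size centred 300 bp to either side of the summits, AP-1 sites were present in 1.05% (0.902% to 1.23%) and the reversed letters in 0.564%. At 20145 low-ranked calls of the pooled list, which overlapped no IDR peak, AP-1 sites were present in 2.11% (1.93% to 2.32%) and the reversed letters in 0.670%. The IDR summits were thus above both backgrounds for the AP-1 site and not for the reversed letters. Another motif, the extended GATA site TGATAAG, had 1142, 848 and 422 sites in bins of 25 bp from the summit outward. It was more numerous than the AP-1 site and, unlike it, most frequent in the bin nearest the summit.

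**Figure D1:**
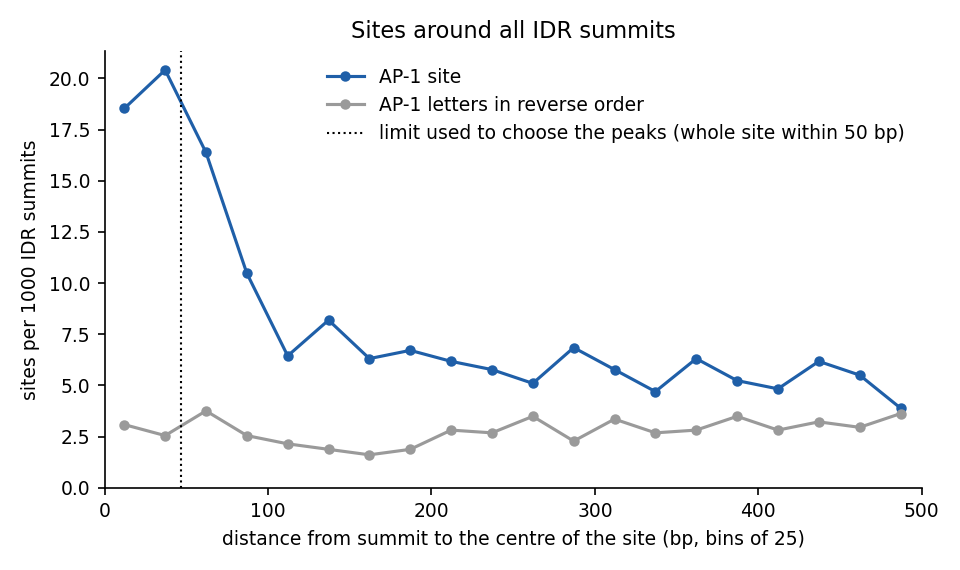
Number of sites per 1000 IDR summits (vertical axis) against the distance between summit and site centre in bins of 25 bp (horizontal axis), for the AP-1 site and for the same letters in reverse order. The AP-1 curve is highest in the bins nearest the summit, which hold 138 and 152 sites, and the dotted line marks the limit of the choice.

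At the AP-1 peaks the median distance from the pooled summit to the centre of the nearest site was 24 bp, with quartiles of 12.8 and 36 bp. From the summit called in replicate 1 the median was 25 bp over 264 peaks, and from that in replicate 2 it was 25.5 bp over the 262 peaks with a call there. The choice itself holds the pooled distance to at most 47 bp, so these medians largely follow from it and do not show centring. The 50 bp limit cuts through a continuous distribution. The 17 peaks just inside it, with the site centre 45 to 47 bp away, had a median signal value of 112.6, and the strongest of them was the peak nearest to nmy-1 at rank 125. The 21 peaks just outside, at 48 to 50 bp, had a median of 69.6, and the strongest was a further jun-1 promoter peak at rank 101, with values of 234.7 pooled, 152.8 in replicate 1 and 82.6 in replicate 2. That jun-1 peak is not counted among the 264.

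AP-1 sites were most frequent at the strongest peaks. Among the 100 IDR peaks of highest signal 16 had a site, a share of 16% (10.1% to 24.4%). The share was 8% at ranks 101 to 250, 7.2% at ranks 251 to 500, 5.4% at ranks 501 to 1000 and 4.1% at ranks 1001 to 2000. From rank 4001 to the end of the list it was 2.26% (1.82% to 2.82%), an interval that includes the 2.11% of the low-ranked calls. The replicates ranked on their own gave the same picture, with sites at 16 of the 100 strongest calls in replicate 1 and 15 of the 100 strongest in replicate 2. From rank 4001 of each replicate to the same depth the shares were 2.35% and 2.44%. Most of the strongest peaks nevertheless had no AP-1 site within 50 bp.

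**Figure D2:**
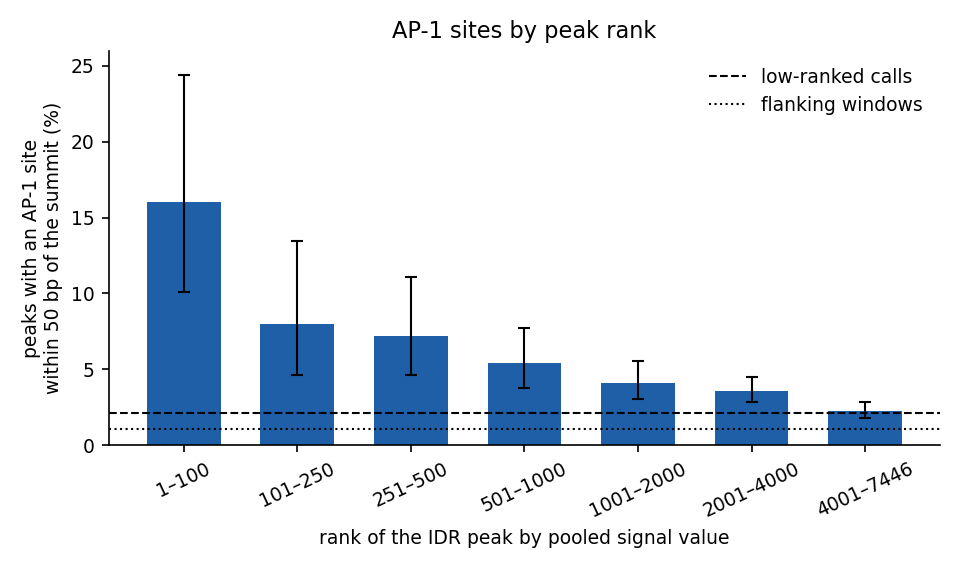
Percentage of IDR peaks with an AP-1 site within 50 bp of the summit (bars, with 95% Wilson intervals) by rank of pooled signal value. The share falls from 16% in the first 100 peaks to 2.26% from rank 4001 on, and the lines mark the low-ranked calls (2.11%) and the flanking windows (1.05%).

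Signal was accordingly higher at AP-1 peaks than at the other 7182 IDR peaks. The pooled values of the AP-1 peaks ran from 34.1 to 436.5, with a median of 85.5 (77.0 to 92.2), against 63.8 (62.9 to 64.9) at the others, a ratio of 1.34. The medians were 59.7 and 44.3 in replicate 1, a ratio of 1.35, and 26.3 and 20.5 in replicate 2, a ratio of 1.28. The intervals of AP-1 and other peaks did not overlap in any of the 3 lists, although the ranges of single peaks overlapped almost fully. Within promoter windows the ratio was 1.35, and outside them it was 1.21. Outside promoter windows the pooled intervals were 64.6 to 93.8 and 60.8 to 63.7, but in each replicate alone the intervals of AP-1 and other peaks overlapped. For 41 intronic AP-1 peaks the medians were 65.3 (53.5 to 91.6) and 60.7 (58.5 to 63.0), and these did not differ beyond their intervals. Peaks above the median signal of the IDR list made up 66.3% of the AP-1 peaks (60.4% to 71.7%) and 49.4% of the others.

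**Figure D3:**
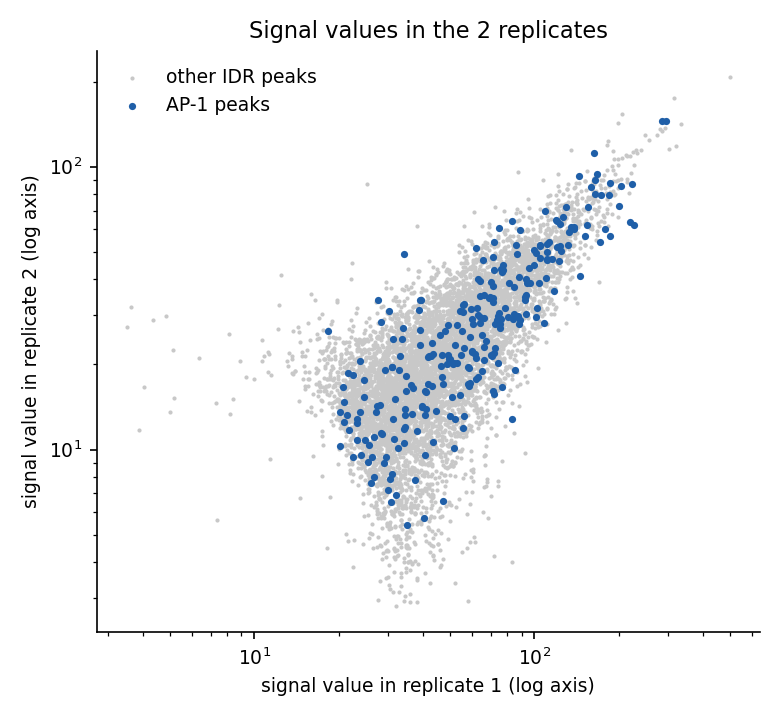
Signal value of each IDR peak in replicate 1 (horizontal, log axis) and replicate 2 (vertical, log axis), with AP-1 peaks in blue and the other IDR peaks in grey. AP-1 peaks spread over the whole cloud, from 18.3 to 294.3 in replicate 1 and from 5.39 to 145.6 in replicate 2, with more of them towards the upper end.

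The IDR asks for agreement between lists, although some peaks that passed it had no call in both replicates. AP-1 peaks were called in both replicates about as often as the others. A relaxed call was present in replicate 1 at all 264 and in replicate 2 at 262, so that 99.2% had both, against 99.1% of the other IDR peaks. Counting only the strongest calls of each replicate, as many as the IDR list holds, 223 of the 264 AP-1 peaks (84.5%, 79.6% to 88.3%) were present in both, beside 79.5% of all IDR peaks and 79.3% of the others. With 50% of the peak covered by such calls the shares were 78.8% (73.5% to 83.3%) and 77.0%, which did not differ beyond the interval. The lower bound at any overlap also lies close to the background, and what the higher signal at AP-1 peaks contributes was not tested.

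Over the whole IDR list, the replicates placed their summits closer together at AP-1 peaks. The choice used the position of the pooled summit, and what that contributes here was not tested. The median distance between the summits of replicates 1 and 2 was 17 bp (15 to 20) at AP-1 peaks and 26 bp (25 to 26) at the others. Among the fifth of IDR peaks with the highest signal the medians were 16 bp (11 to 19) and 17 bp (16 to 18), which did not differ beyond their intervals. Among peaks above the median signal they were 16 bp (14 to 20) and 21 bp (20 to 22), with intervals that met at 20 bp. Among peaks below the median signal they were 18 bp (13 to 28) over 87 AP-1 peaks and 32 bp (30 to 33) over 3576 others. Among these weaker peaks, other peaks chosen for a different motif had medians of 28 bp for the extended GATA site TGATAAG, 34 bp for the GAGA repeat GAGAGAG and 31 bp for GACGCAGA. The medians of strong and weak AP-1 peaks did not differ beyond their intervals, whereas those of the other peaks did. Among the weaker peaks the intervals of the AP-1 peaks and of the extended GATA peaks (26 to 31) overlapped. Replicate summits lay within 50 bp of each other at 75.9% of those AP-1 peaks and 77.7% of those extended GATA peaks. The share was 70.0% at all the weaker other peaks.

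**Figure D4:**
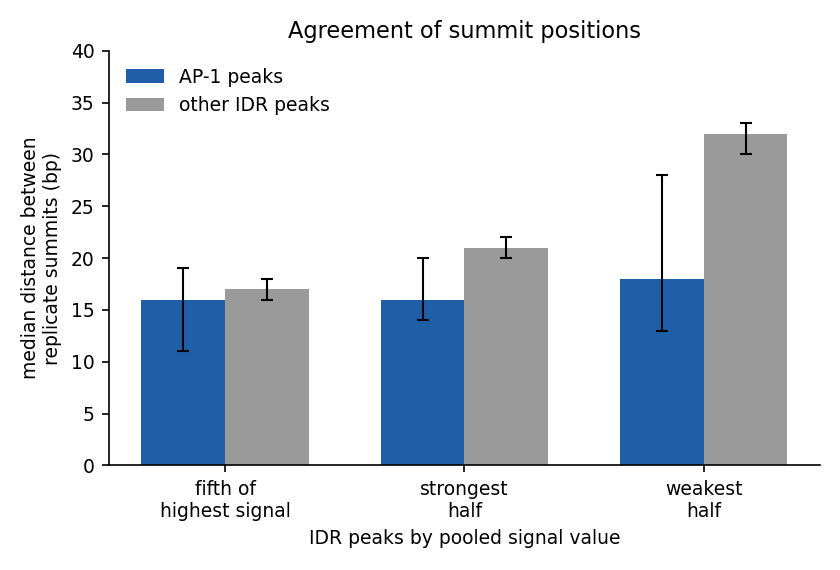
Median distance in bp between the summits called in replicates 1 and 2 (bars, with 95% order-statistic intervals) for AP-1 peaks and the other IDR peaks, by pooled signal (the strongest and weakest sets are split at the median). AP-1 peaks stay at 16 to 18 bp, while the other peaks go from 17 to 32 bp.

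The genome offers many more AP-1 sites than were found under peaks. The 6 nuclear chromosomes, 100272607 bases in all, hold 9580 sites, of which 271 (2.83%, 2.52% to 3.18%) lay within 50 bp of an IDR summit. The share was 5.24% (4.48% to 6.12%) of the 2863 sites in promoter windows, 2.77% of those between genes and 1.92% of those in introns. In coding exons it was 0.463% (0.235% to 0.912%), or 8 of 1726 sites. With the summits of either replicate alone the overall shares were 2.74% and 2.82%.

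The base on each side of the palindrome went with large differences in how often a site lay under a summit. Each site was read on the strand where it is TGACTCA, which gives 16 combinations of the base before and the base after. Of the 949 sites ATGACTCAT, 58 (6.11%, 4.76% to 7.82%) were at an IDR summit, as were 5.80% with the summits of replicate 1 and 5.06% with those of replicate 2. Of the 1337 sites TTGACTCAA, which have the same base composition and are the most numerous in the genome, 8 (0.598%, 0.304% to 1.18%) were at a summit, and 0.524% and 0.449% in the replicates. These intervals are far apart in the pooled list, and the order was the same in both replicates. At the low-ranked calls, 81 of the ATGACTCAT sites (8.5%) and 25 of the TTGACTCAA sites (1.87%) were at a summit. The order was therefore not particular to IDR peaks.

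Shares were lower for sites with a T before or an A after. Where neither T came before nor A after, 202 of 4316 sites (4.68%, 4.09% to 5.35%) were at a summit. With one of them the share was 1.55% (1.21% to 1.99%), and the highest of these single contexts was TTGACTCAT, at 3.15% (2.20% to 4.48%). Some contexts with neither were also low, with 2.22% (1.21% to 4.04%) for ATGACTCAG and 1.70% (0.661% to 4.28%) for CTGACTCAG. Sorted instead by an A before and a T after, the shares were 6.11% with both, 3.25% with one and 1.74% with neither. None of the 322 sites TTGACTCAG was at a summit, which allows a share of up to 1.18%, while 13 of 220 sites GTGACTCAG (5.91%, 3.49% to 9.85%) were. The contrast was present within promoter windows, where 7.76% of the ATGACTCAT sites and 1.48% of the TTGACTCAA sites (0.635% to 3.43%) were at a summit. In introns 11 of 199 ATGACTCAT sites (5.53%, 3.11% to 9.6%) and 1 of 409 TTGACTCAA sites (0.244%, 0.0432% to 1.37%) were. The intronic ATGACTCAT share was 5.03% in replicate 1 but 2.01% in replicate 2. Among the AP-1 peaks themselves, 197 of 264 (74.6%, 69.0% to 79.5%) had neither a T before nor an A after the site nearest to the summit, 56 had the ATGACTCAT context and 8 had TTGACTCAA.

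**Figure D5:**
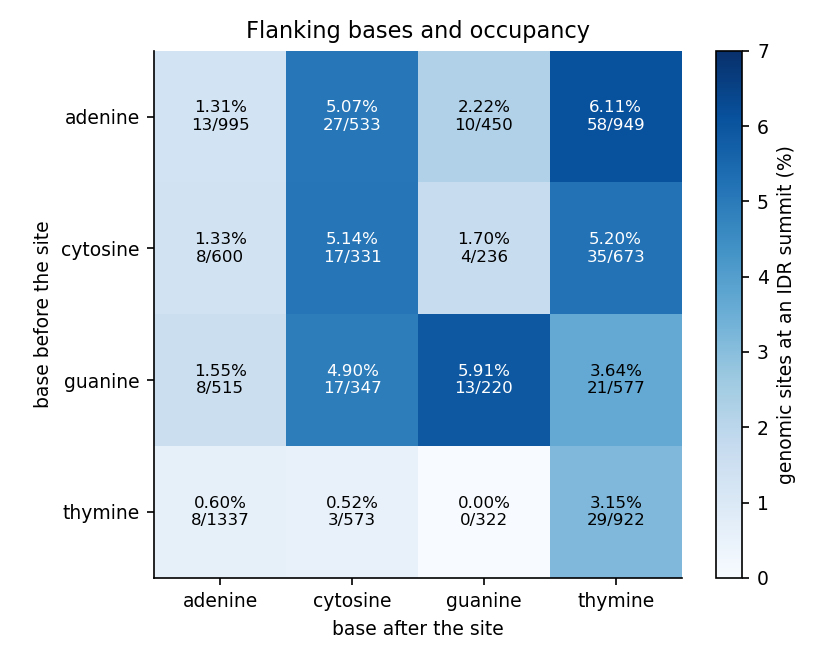
Percentage and number of genomic AP-1 sites that lie within 50 bp of an IDR summit, by the base before the site (rows of the grid) and the base after it (columns), on the strand where the site was read. The first column (adenine after) and the bottom line (thymine before) are pale except for the corner with thymine on both sides (3.15%), and the highest value is 6.11%.

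ATGACTCAT, the context most often found under a pooled summit (other contexts were higher in each replicate alone), did not have higher signal. The 56 AP-1 peaks in the ATGACTCAT context had a median pooled signal of 66.9 (55.2 to 96.6), against 88.6 (81.5 to 95.1) at the other 208 AP-1 peaks. In replicate 1 the medians were 47.7 and 62.3 and in replicate 2 they were 21.7 and 27.6, with overlapping intervals in each list. A site within 20 bp of the summit did not go with higher signal either, with a median of 79.1 over 111 peaks and 91.6 over 153 peaks whose site lay farther out. The 7 peaks with 2 sites had a median of 66.6 and ranged from 35.8 to 309.3, so a second site was found at strong and weak peaks alike.

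AP-1 peaks lay in the same parts of genes as the other peaks. The promoter window of a protein-coding transcript was taken as the 1000 bp before its start and the 250 bp after it, and a summit there was found for 148 of the 264 (56.1%, 50.03% to 61.9%) and for 56.7% of the others. Outside these windows 62 AP-1 peaks were intergenic, 41 lay in introns, 7 in coding exons, 5 in other genes and 1 in a 3′ UTR. The corresponding shares of intergenic and intronic peaks were 23.5% and 15.5% at AP-1 peaks and 22.6% and 15.0% at the others. Promoter summits stood at a median of -161.5 bp from the start at AP-1 peaks and -173 bp at the others, where negative values are upstream. Peaks that lay in promoter windows on both strands made up 7.20% of AP-1 peaks (4.66% to 10.97%) and 11.07% of the others (10.4% to 11.8%). The chromosomes held between 34 (chromosome IV) and 54 (chromosome X) AP-1 peaks, and on each chromosome the share of the other peaks lay within the interval for AP-1 peaks.

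GATA sites, the binding sites of zinc finger factors such as those that specify the worm gut and epidermis, were as common beside AP-1 sites as elsewhere. A GATA site was taken as AGATAA or AGATAG or TGATAA or TGATAG on either strand, and one was found within 50 bp of the summit at 141 AP-1 peaks (53.4%, 47.4% to 59.3%) and at 52.9% of the others. None of these GATA sites shared a base with the AP-1 site. At least 2 GATA sites were found at 13.6% of AP-1 peaks (10.02% to 18.3%) and at 24.5% of the others (23.5% to 25.5%), so runs of GATA sites were rarer at AP-1 peaks by more than the intervals. Part of the window at an AP-1 peak is taken up by the AP-1 site, and what that contributes was not tested.

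The remaining motifs differed little. The extended GATA site was present at 21.97% of AP-1 peaks and 22.8% of the others, the GAGA repeat at 9.09% and 9.86%, and GACGCAGA at 4.55% and 5.36%. The E-box CACGTG, bound by basic helix-loop-helix factors, was present at 5 AP-1 peaks (1.89%, 0.812% to 4.36%) and at 4.05% of the others. The cyclic AMP response element TGACGTCA, the 8-base palindrome of related bZIP dimers, was present at 3 AP-1 peaks (1.14%, 0.387% to 3.29%) and at 0.808% of the others. No other listed motif was present at 100 AP-1 peaks (37.9%) and at 35.8% of the others. AP-1 peaks with a GATA site had a median signal of 89.5 (81.9 to 96.97) and those without one 73.2 (63.4 to 93.8), with overlapping intervals. Against other peaks of the same kind, AP-1 peaks had 1.33 times the median signal with a GATA site and 1.21 times without one, and in replicate 2 the ratio without GATA was 1.09.

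The gene of the Jun partner itself carried the strongest AP-1 peak. This peak (chromosome II, 9112899 to 9113294) ranked 4 of all IDR peaks, with its summit 36 bp upstream of a jun-1 transcript start, and had signal values of 436.5 pooled, 294.3 in replicate 1 and 145.6 in replicate 2. It ranked 6 in replicate 1 and 4 in replicate 2. Its site centre lay 43 bp from the pooled summit, 68 bp from that of replicate 1 and 43 bp from that of replicate 2. A second AP-1 peak stood 174 bp upstream of another jun-1 start farther into the gene (summit at 9127163, against 9113121 for the first). It had values of 180.8, 109.5 and 69.9, and its site centre lay 46, 57 and 47 bp from the respective summits. Both peaks were thus near the 47 bp limit, and beyond it by the summits of replicate 1. Another, weaker one lay in an intron (64.6, 46.3 and 19.7). No other protein-coding gene had 2 AP-1 peaks in its promoter windows.

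Several FOS-1 peaks lay around jun-1. Within 20 kb of the gene there were 15 IDR peaks, of which 4 were AP-1 peaks, the 3 just given and one at C07H4.1 (rank 25) on the near side of the gene's first start. The C07H4.1 peak had 2 sites 11 bp apart, centre to centre, and values of 309.3, 223.1 and 86.8. Within 20 kb of fos-1 (chromosome V, 6003601 to 6016087) there was no IDR peak. The strain also carries fos-1 sequence in its transgene, and what that does to peak calling at this locus was not tested.

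The second strongest AP-1 peak, at rank 6, lay in the promoter windows of rib-2, a glycosyltransferase of heparan sulfate synthesis, and tbb-1, a β-tubulin. It had values of 427.5 pooled, 284.6 in replicate 1 and 145.4 in replicate 2. Both it and the first jun-1 peak had higher values than any other AP-1 peak in both replicates.

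Of the other peaks among the 20 strongest, 6 with a known gene role are given first. The peak of unc-112, the worm kindlin of the integrin attachment complex, had values of 280.3 pooled, 220.1 in replicate 1 and 64.0 in replicate 2. The peak of rme-1, an EHD protein of endocytic recycling, had 267.6, 200.3 and 72.7. The peak of tba-2, an α-tubulin, had 261.9, 162.7 and 112. The replicates ordered these genes differently, since unc-112 was highest in replicate 1 and tba-2 in replicate 2. The peak shared by alx-1, the worm ALIX of endosomal sorting, and mog-1, an RNA helicase of the germline sex switch, had 260.8, 167.9 and 94.6. The peak of dyn-1, the dynamin that pinches off endocytic vesicles, had 237.7, 178.1 and 60.5. The peak of clc-1, a claudin-like junction protein, had 229.8, 159.2 and 84.6. Their ranks among all IDR peaks ran from 44 for unc-112 to 115 for clc-1.

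The rest of the 20 strongest follow. The rom-1 peak, at a gene for a rhomboid protease known from vulval induction, had values of 289.7 pooled, 226.5 in replicate 1 and 62.4 in replicate 2. The peak in an intron of ncr-1, a worm relative of the Niemann-Pick C1 cholesterol transporter, had 275.1, 186.6 and 87.5. The peak in the promoter windows of inx-15 and inx-16, both innexins of gap junctions, had 247.1, 164.7 and 80.2. The nuclear receptor gene nhr-50 had a site 2 bp from its summit and values of 263.1, 185 and 79.5. The DM-domain gene dmd-8 was the nearest gene of an intergenic peak 2566 bp away, with 252.3, 172.6 and 79.8. Other strong peaks lay at F20D1.3 (283.4), Y18D10A.4 (249.2), C18B2.4 (243.2), Y75B8A.28 (233.3) and the pair Y38H6C.24 and srh-166 (223.7), the last a chemoreceptor gene. The twentieth was nearest to nmy-1, a non-muscle myosin heavy chain, and lay 2970 bp from its start, with 223 pooled, 172 in replicate 1 and 54.2 in replicate 2. All 20 were above the median of the AP-1 peaks in both replicates.

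Of the 7 peaks with 2 sites, the strongest after C07H4.1 was in an intron of mdl-1, a MAD-like repressor of the basic helix-loop-helix class, with values of 102.4, 74.2 and 29.7 and sites 76 bp apart. The next were at Y110A7A.21 (77.3, 28 bp apart), hgap-2 (66.6, 86 bp apart) and Y46G5A.20 (48.4, 24 bp apart). The spacing thus ranged from 11 to 86 bp with no value shared by any pair of peaks.

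By promoter window, 168 of 19973 protein-coding genes had an AP-1 peak, a background of 0.841%, while 23.4% had any IDR peak, so that 3.59% of the bound genes had one with an AP-1 site. The gene lists below were chosen with earlier results of these data known and get no test. Among 29 bZIP genes, 21 had any IDR promoter peak and 2 had an AP-1 peak, jun-1 and zip-6. The zip-6 peak was weak, with 47.9 pooled, 29.2 in replicate 1 and 19.1 in replicate 2. Outside promoter windows an intronic AP-1 peak was nearest to zip-5, named after its values were seen, with 71.8, 38.7 and 31.1.

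The MAP kinase pathways, which include the kinases that act on AP-1 factors, had 20 of 32 genes with any promoter peak and 3 with an AP-1 peak. The peak of kgb-1, a Jun kinase relative of the stress response, had values of 177.5 pooled, 123.3 in replicate 1 and 52.5 in replicate 2. The peak of pmk-3, a p38 kinase, had 177.1, 124.8 and 50.5, and stood 49 bp upstream of the start. The peak of max-2, a p21-activated kinase, had 126.9, 92.8 and 33.8. All 3 were above the AP-1 median in both replicates. Peaks outside promoter windows were nearest to 3 more listed genes, named here after their values were seen. These were introns of mpk-1, the worm ERK (102.6 pooled), dlk-1, a kinase of axon regeneration (72.3), and tir-1, the SARM adaptor (65.3).

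Among 20 genes reported as FOS-1 targets or needed for anchor cell invasion, 4 had any IDR promoter peak and none had an AP-1 peak, with 20% bound beside the background of 23.4%. None of 20 genes of the unfolded protein response, 22 of the heat shock response, 21 of the oxidative stress response and 35 of the proteasome and CDC-48 had an AP-1 peak, although 13, 12, 7 and 20 of them had another IDR peak in the promoter window. With 3.59% of bound genes as the background, lists of 7 to 20 bound genes are too short for a count of 0 to set them apart. Outside promoter windows, AP-1 peaks were nearest to dnj-27, an endoplasmic reticulum chaperone (138.5 pooled), and hsp-16.1, a small heat shock protein (96.6), both named after their values were seen. Heparan sulfate and proteoglycan genes had 2 of 20, rib-2 and sqv-5, the latter a chondroitin synthase with a low peak of 37.7 pooled. Integrin complex genes had 2 of 21, unc-112 and ced-12, an ELMO protein that acts on Rac, at 83.4 pooled, 54.2 in replicate 1 and 30.9 in replicate 2.

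Peak width and base composition differed slightly. The median peak width was 344 bp in both sets, the value most peaks share, but the lower quartile was 204 bp at AP-1 peaks and 344 bp at the others. Width went with rank, since no AP-1 peak down to rank 921 had a width of 344 bp and from rank 994 on most did. The quartiles therefore do not show a difference in shape apart from rank. GC content within 50 bp of the summit had medians of 39.6% and 40.6%. Among the named peaks, those of max-2 and kgb-1 were 131 and 203 bp wide, and the part of signal in this difference was not tested.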

How the data were processed

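Both libraries were assigned by the biological replicate number in the labels, and p-values were not computed, because the 2 replicates form 1 group. The deposited peak lists on ce11 were used: the IDR list, the pooled relaxed list and a relaxed list per replicate, the relaxed lists made by the authors from alignments and a control, per the manifests deposited with them. The sources used here name neither aligner nor peak caller. The authors' signal value, −log10 q-value and summit offset are used as deposited. Peaks were ranked by signal, and the signal of a replicate was that of the overlapping call (1 bp) whose summit was nearest. The IDR list holds 7446 peaks, and the control library and the ce10 lists were not used. Sites were searched on both strands of WBcel235, and genes are those of Ensembl release 115. Scripts ran in Python 3.11.15 with numpy 2.4.6, pandas 2.3.3, scipy 1.17.1 and matplotlib 3.10.9, and site search and intervals were tested on simulated data. Shares have Wilson intervals and medians order-statistic intervals, at 95%. Named genes are the nearest genes of the 20 strongest AP-1 peaks, the 5 strongest with 2 sites, listed genes with an AP-1 promoter peak, fos-1, jun-1, and the peaks beside the 50 bp limit. Members and lists were chosen with earlier results of these data known.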

Additional observations from a re-analysis of the deposited data

How the results depend on the processing

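No paired analysis was possible because both replicates belong to a single group. Relative to the flanking windows the AP-1 share at summits was 3.36 times as high, and relative to the low-ranked calls 1.68 times. The share was 1.63% with a 25 bp window, 6.21% with 100 bp and 4.70% among peaks above the median signal, and 3.44% to 3.55% with either replicate left out. The signal ratio was 1.26 with 25 bp, 1.21 without GATA peaks and 1.18 among peaks above the median signal. Outside promoter windows (chosen after seeing the data) it was 1.21. By the values of each replicate at the same IDR peaks it was 1.28 and 1.35, as given above. Support by both replicates was 78.8% with 50% of the peak covered and 99.2% with any relaxed call, against 77.0% and 99.1% at the other peaks, so the difference of the 1 bp overlap was not kept. The promoter share was 43.6% with 500 bp upstream and 70.8% with 2000 bp (46.1% and 70.1% at the other peaks). It was 53.4% and 58.2% in the strongest calls of each replicate alone. The GATA share was 67.97% with 100 bp, 59.4% among peaks above the median signal, and 48.9% and 53.5% in the strongest calls of each replicate. Occupation of ATGACTCAT was 2.32% with 25 bp, 11.4% with 100 bp and 3.16% by peaks above the median signal. By the strongest calls of each replicate it was 5.06% and 5.80%. Occupation of TTGACTCAA was 0.374% with 25 bp, 1.27% with 100 bp and 0.598% by peaks above the median signal. In promoter windows (chosen after seeing the data) it was 1.48%. By the strongest calls of each replicate it was 0.449% and 0.524%. The contrast between the 2 contexts was thus smaller by peaks above the median signal than by all IDR peaks. In the listed families 9 genes had an AP-1 promoter peak, 7 with 500 bp and 13 with 2000 bp. Every alternative kept the direction of the signal ratio above 1 and of the flanking-base contrast. A wider or narrower window changes shares by construction. Unknown depth and a single group of 2 limit what the intervals cover.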

Other observations

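Genes of endocytosis, membrane sorting and the ESCRT machinery had AP-1 promoter peaks at 9 of 45 members, beside 0.841% of all protein-coding genes. This list was drawn up after the strongest AP-1 peaks had been seen, so it is given with no test. Any IDR promoter peak was present at 35 of the 45. Among bound genes the share with an AP-1 peak was 25.7% in the list and 3.59% over all protein-coding genes. Beyond rme-1, alx-1 and dyn-1 the list members with an AP-1 promoter peak were did-2 (150.7 pooled), vps-4 (119.3), rabn-5 (71.5), vps-26 (61.7), snx-3 (144.9) and hipr-1 (37.9). DID-2 and VPS-4 act late in ESCRT sorting, VPS-26 is a retromer subunit and SNX-3 a sorting nexin. The peaks ran from rank 54 to rank 6746, so strong and weak ones were both present.

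Genes for the engulfment of dying cells, also listed after the results were seen, had AP-1 promoter peaks at 4 of 19, and 8 of the 19 had any promoter peak. These were chat-1 (117.7), ced-6 (92.3), ced-12 (83.4) and ced-7 (61.3), of which CED-6 is the adaptor and CED-7 the ABC transporter of corpse recognition. Genes of the actin and tubulin cytoskeleton, listed in the same way, had them at 5 of 44, and 26 of the 44 had any promoter peak. These were tbb-1, tba-2, act-2 (196.3), sma-1 (102) and unc-60 (54.1). The unc-60 peak was shared with F53E2.2 and had no call in replicate 2. An intergenic AP-1 peak was also nearest to wsp-1, the worm WASP, with 156.7 pooled, 110.6 in replicate 1 and 46.9 in replicate 2.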
